A study of Mus musculus with 18 samples.

Results

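Neutrophil genes were followed in liver RNA of mice given TCDD for 92 days. The 9 genes are S100a8, S100a9, Ly6g, Retnlg, Cxcr2, Csf3r, Ngp, Camp and Ltf, taken by name from the 55536 gene identifiers in the count files, and all 9 were found. RNA from the livers of 18 female C57BL/6 mice was sequenced after poly-T selection, with 3 mice in each of 6 groups. Doses were given by gavage every 4 days, as TCDD, a dioxin that activates the aryl hydrocarbon receptor AHR, at 100 µg/kg or as its peanut oil vehicle. The dHep TCDD and dHep vehicle groups are AhRΔHep mice, whose AHR was deleted in hepatocytes. The dHSC TCDD and dHSC vehicle groups are AhRΔHSC mice, whose AHR was deleted in hepatic stellate cells. The WT TCDD and WT vehicle groups are AhRfl/fl mice, with a floxed Ahr gene and no deletion, so they are the floxed controls rather than mice with an unmodified gene. The labels give neither the Cre driver of each deletion nor the ages of the mice, and each library is 1 mouse, named by its group and mouse number. The series, by its title, is about the activation of liver myofibroblasts by TCDD and the part of hepatocyte AHR in it. For the neutrophil genes the design allows 3 further questions. These are whether TCDD moved them, whether that depended on AHR in either cell type, and whether the deletions moved them without TCDD.

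Neutrophils are short-lived white blood cells made in the bone marrow that enter tissues from the blood. They load their granules in order while they mature: the azurophil granule proteases first, then proteins of the specific granules such as lactoferrin and cathelicidin, and then the proteins of gelatinase granules. Mature cells stop making most granule messages, and they carry the chemokine receptor CXCR2 and large amounts of the calcium-binding proteins S100A8 and S100A9, the calgranulins, which pair as calprotectin. In liver, neutrophils are few at rest and are known to gather where hepatocytes are injured. Calgranulins are also made by some monocytes, so S100a8 and S100a9 are less specific to neutrophils than Ly6g. Whole liver was measured here, so fewer neutrophils and less RNA per neutrophil cannot be told apart.

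The promoters of 5 members are shown so that calgranulin, receptor and granule genes, which are read in turn below, can be set side by side. Each window runs from 250 bases before to 50 bases after the RefSeq start site on GRCm38.p6, 5′ to 3′ on the gene's own strand. Capitals mark matches to the C/EBP motif TTGCNNAA or the PU.1 motif GAGGAA on either strand, the motifs of transcription factor families known to drive neutrophil genes. The windows are S100a8 at chr3:90668821-90669120 (plus strand), S100a9 at chr3:90695672-90695971 (minus strand), Cxcr2 at chr1:74153744-74154043 (plus strand), Ngp at chr9:110419558-110419857 (plus strand) and Ltf at chr9:111019042-111019341 (plus strand).
S100a8: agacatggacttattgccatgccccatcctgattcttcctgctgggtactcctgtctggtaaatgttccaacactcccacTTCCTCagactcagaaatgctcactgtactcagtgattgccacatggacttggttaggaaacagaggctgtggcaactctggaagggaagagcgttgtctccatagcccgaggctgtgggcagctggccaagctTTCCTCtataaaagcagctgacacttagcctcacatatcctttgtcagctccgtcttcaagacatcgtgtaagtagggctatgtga
S100a9: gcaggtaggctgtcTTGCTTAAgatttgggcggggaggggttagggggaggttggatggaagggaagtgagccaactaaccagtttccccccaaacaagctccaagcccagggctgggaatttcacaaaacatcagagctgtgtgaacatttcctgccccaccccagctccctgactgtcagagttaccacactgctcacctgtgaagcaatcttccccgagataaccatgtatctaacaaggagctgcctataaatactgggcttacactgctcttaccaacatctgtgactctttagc
Cxcr2: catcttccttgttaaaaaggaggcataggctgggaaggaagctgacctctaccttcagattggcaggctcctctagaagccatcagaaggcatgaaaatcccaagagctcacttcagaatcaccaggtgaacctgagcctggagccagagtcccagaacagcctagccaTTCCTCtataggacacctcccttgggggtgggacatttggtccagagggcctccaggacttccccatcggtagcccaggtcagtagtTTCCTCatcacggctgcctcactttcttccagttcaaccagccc
Ngp: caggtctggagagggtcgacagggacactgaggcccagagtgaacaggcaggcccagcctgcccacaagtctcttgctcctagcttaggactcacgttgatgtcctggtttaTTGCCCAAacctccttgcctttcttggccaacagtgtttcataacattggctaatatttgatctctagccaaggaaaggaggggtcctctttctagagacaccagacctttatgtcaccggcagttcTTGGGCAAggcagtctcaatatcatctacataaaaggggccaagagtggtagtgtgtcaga
Ltf: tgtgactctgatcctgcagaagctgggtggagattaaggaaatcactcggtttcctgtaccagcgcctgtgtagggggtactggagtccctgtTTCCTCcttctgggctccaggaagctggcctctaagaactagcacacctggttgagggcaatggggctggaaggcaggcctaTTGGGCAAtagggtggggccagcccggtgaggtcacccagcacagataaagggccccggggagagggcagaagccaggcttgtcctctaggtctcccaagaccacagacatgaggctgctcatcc
Ngp had 2 C/EBP matches and no PU.1 match, S100a8 and Cxcr2 each had 2 PU.1 matches and no C/EBP match, S100a9 had 1 C/EBP match and no PU.1 match, and Ltf had 1 of each. Over the 10 RefSeq windows of the 9 members, Ly6g having 2 overlapping ones, 5 held the C/EBP motif and 6 the PU.1 motif. Of the 32851 RefSeq promoters of the same length, 10.8% held the C/EBP motif and 28.3% the PU.1 motif. The core of the dioxin response element, GCGTG on either strand, was in 32.4% of all promoters and in 0 of the 10 member windows. No 2 of these motifs share letters at a match in the printed windows. These are matches of letters within 300 bases and nothing more.

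The members lie on 6 chromosomes of GRCm38, and no other annotated gene overlaps any of them. S100a8 (ENSMUSG00000056054, chromosome 3, 90668978 to 90670035) and S100a9 (ENSMUSG00000056071, chromosome 3, 90692632 to 90695721) are neighbours in the S100 cluster. Ngp (ENSMUSG00000032484, 110419747 to 110423012), Camp (ENSMUSG00000038357, 109847379 to 109849617) and Ltf (ENSMUSG00000032496, 111019271 to 111042767) all lie on chromosome 9. Cxcr2 (ENSMUSG00000026180) is on chromosome 1 at 74153989 to 74161246 and Csf3r (ENSMUSG00000028859) on chromosome 4 at 126024550 to 126044440. Ly6g (ENSMUSG00000022582, chromosome 15, 75155240 to 75159126) and Retnlg (ENSMUSG00000022651, chromosome 16, 48872621 to 48874496) belong to families of related genes, whose reads the counting may not split fully. All 9 are protein-coding genes, and counts cover the whole gene.

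Libraries held 12706490 to 27240877 counts. Ahr itself overlapped between genotypes, at 28.1 to 94.9 CPM in dHep livers, 23.2 to 60.7 in dHSC livers and 32.7 to 69.97 in WT livers. The labels do not say which part of the gene was deleted, so whole-gene counts do not check the deletions. Cyp1a1, the classic AHR target, had 283.2 to 333.8 CPM in dHep TCDD and 25.9 to 86.9 CPM in dHep vehicle, 2449 to 5574 CPM in dHSC TCDD and 3.24 to 16.7 CPM in dHSC vehicle, and 5091 to 8329 CPM in WT TCDD and 5.04 to 33.2 CPM in WT vehicle. On the first principal component of all genes, which held 38.3% of the variance, 5 libraries stood apart: dHep TCDD replicate 16, dHep vehicle replicates 9 and 15, dHSC TCDD replicate 18 and dHSC vehicle replicate 17. They had 2.20% to 4.25% of their counts outside protein-coding genes, against at most 1.76% in the others, and mitochondrial genes took 28.4% of counts in dHSC TCDD replicate 18. No WT library is among the 5, but WT vehicle replicate 1 held skeletal muscle messages, at 1037 CPM summed over 6 markers. Levels below are CPM, each gene's counts scaled to a common library total after TMM. Differences are log2 values, given with a standard error (SE, n = 3 mice a group). P-values are from the quasi-likelihood test of edgeR, adjusted after Benjamini and Hochberg over the 14835 genes tested, and 'called' means that the adjusted value lay below 0.05. The low-count filter passed 8 of the 9 members and left out Ly6g. A member can pass it through 1 group with high levels, so counts over those 8 are a description.

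In WT livers the neutrophil genes were higher with TCDD, most by more than 10-fold. Of the 8 tested, 6 were called higher: both calgranulins, the resistin-like gene Retnlg, the receptors Cxcr2 and Csf3r, and the granule gene Ngp. Of all genes tested, 3.43% were called higher in this comparison, 1.95% lower and 5.38% in either direction. The median log2 difference of the 8 was 4.85, against -0.02 over all genes tested. Every one of the 8 had its 3 WT TCDD libraries above its 3 WT vehicle libraries, as did 13.4% of all genes tested. Summed over the 9 members, WT TCDD replicates 2, 8 and 14 held 78.6, 95.9 and 104.3 CPM, against 4.59, 2.91 and 6.03 CPM in WT vehicle replicates 1, 7 and 13.

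The calgranulins were the most abundant members. S100a8, whose protein is the smaller partner of calprotectin, had 21.3, 27.4 and 28.7 CPM in WT TCDD replicates 2, 8 and 14, against 0.459, 0.617 and 1.03 CPM in WT vehicle replicates 1, 7 and 13. The 2 groups were far apart, and the 3 TCDD livers lay close together. The log2 difference was 5.19 ± 1.10 (SE, n = 3 each, adjusted p = 0.0104). S100a9, the other partner, had 27.1, 40.4 and 39.4 CPM in WT TCDD, against 0.802, 0.448 and 1.89 CPM in WT vehicle. It too had no overlap, and its log2 difference was 5.08 ± 0.97 (SE, n = 3 each, adjusted p = 0.00512). Leaving out each of the 6 WT libraries in turn kept the call of S100a9, while that of S100a8 ended without WT vehicle replicate 7 (adjusted p = 0.0596).

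The receptors differed in how far they moved. Cxcr2, the receptor for the chemokines that draw neutrophils out of marrow and into tissue, had 4.44, 5.58 and 4.09 CPM in WT TCDD, against 0, 0.112 and 0.230 CPM in WT vehicle. Vehicle livers were near the detection limit, with 6 counts in all 3 together. Its log2 difference of 5.29 ± 0.84 (SE, n = 3 each) had the lowest adjusted p of the members, at 0.00116. Csf3r, the receptor for the growth factor G-CSF that drives neutrophil production, had 16.8, 15.7 and 12.2 CPM in WT TCDD, against 2.87, 1.23 and 2.18 CPM in WT vehicle. Its groups were also apart, but it was well detected in every vehicle liver, and its log2 difference was 2.82 ± 0.72 (SE, n = 3 each, adjusted p = 0.0285). That call was lost in 5 of the 6 fits that leave out a WT library, all but the one without WT vehicle replicate 1, with adjusted p up to 0.142.

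Retnlg, a secreted resistin-like protein found in neutrophils and marrow, had 2.34, 4.27 and 4.42 CPM in WT TCDD, against 0, 0 and 0.172 CPM in WT vehicle. WT vehicle livers held 3 counts in all, so the size of its change is best read from the counts, at a ratio of 64.4 with a 95% counting interval of 21.8 to 314.5. The fitted log2 difference, which depends on how such low counts are smoothed, was 5.85 ± 1.15 (SE, n = 3 each, adjusted p = 0.00628). Its call held in all 6 fits that leave out a WT library. Ly6g, the surface protein by which mouse neutrophils are usually recognised, was hardly sequenced, with 34 counts over all 18 libraries. It had 0.137, 0.228 and 0.455 CPM in WT TCDD, against 0, 0 and 0.115 CPM in WT vehicle, a ratio of 7.46 on 18 and 2 counts (95% counting interval 1.79 to 66.3). Its groups did not overlap either, and no test was made.

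The 3 granule genes varied more between the TCDD livers. Ngp, a protein of the specific granules, had 3.75, 1.25 and 6.62 CPM in WT TCDD, against 0.229, 0.168 and 0.0574 CPM in WT vehicle. Its log2 difference was 4.62 ± 1.21 (SE, n = 3 each, adjusted p = 0.0341), and the call held in 1 of the 6 fits that leave out a WT library, the one without WT TCDD replicate 8. Camp, the antimicrobial peptide cathelicidin, had 0.824, 0.626 and 2.73 CPM in WT TCDD, against 0.229, 0.0560 and 0.0574 CPM in WT vehicle. Ltf, the iron-binding protein lactoferrin, had 1.97, 0.456 and 5.66 CPM in WT TCDD, against 0, 0.280 and 0.287 CPM in WT vehicle. For all 3 genes, WT TCDD replicate 14 was highest and replicate 8 lowest. Camp, with a log2 difference of 3.54 ± 1.14 (SE, n = 3 each, adjusted p = 0.0850), and Ltf, with 3.79 ± 1.45 (SE, n = 3 each, adjusted p = 0.165), did not pass the threshold. Both passed it when the 5 libraries that stand apart were left out, which hold no WT liver but enter the shared estimate of spread (adjusted p = 0.0153 for Camp and 0.0304 for Ltf).

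**Figure D1:**
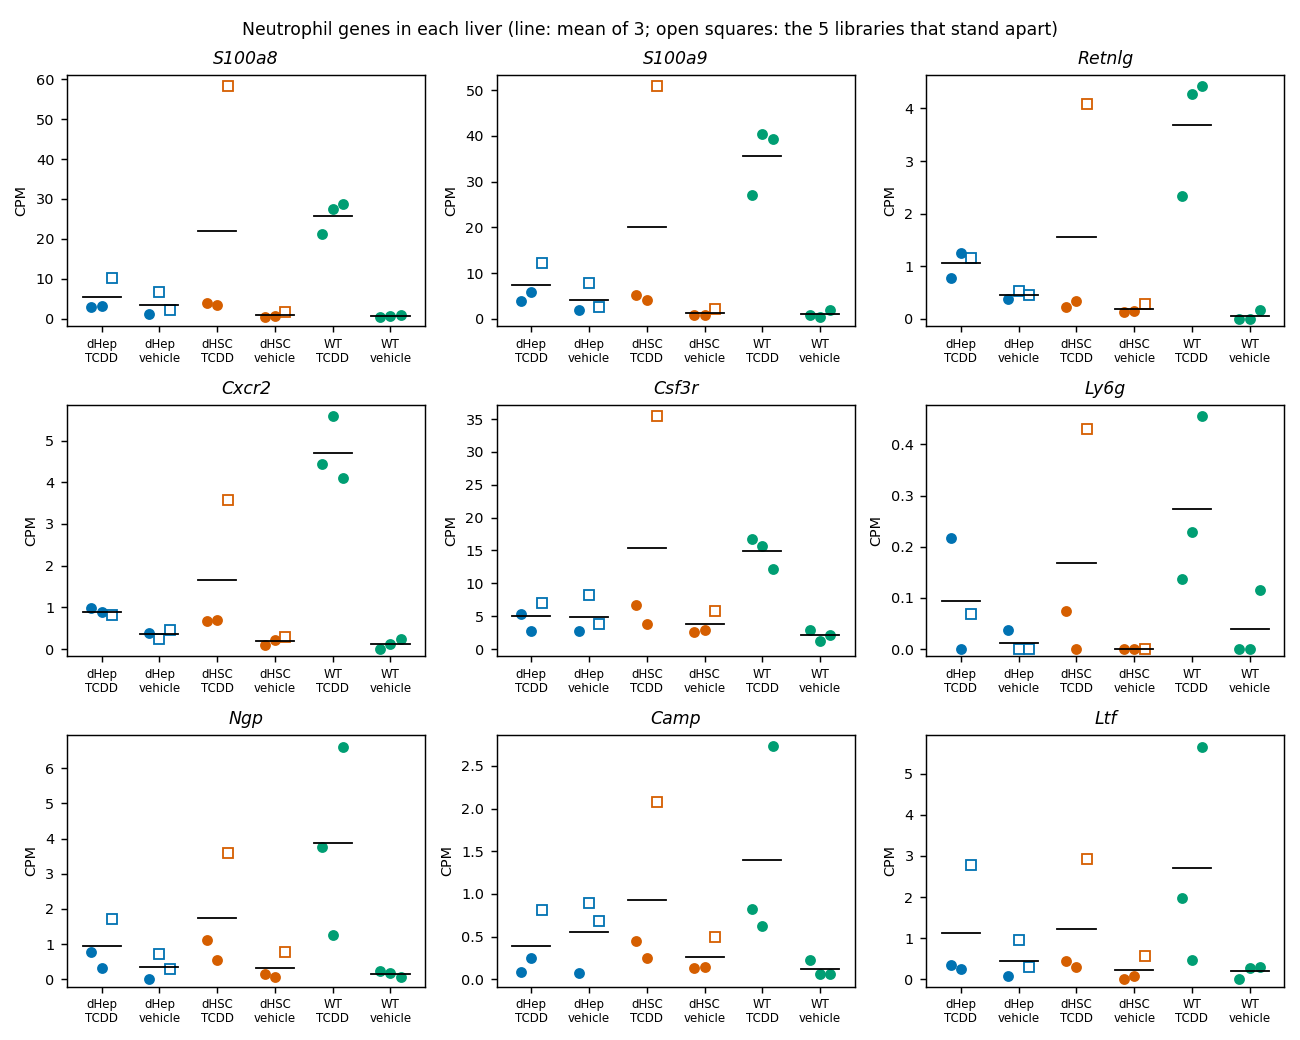
Levels of the 9 neutrophil genes in CPM (linear axes) in each of the 18 livers, by group, with the mean of 3 livers as a line and the 5 libraries that stand apart as open squares. WT TCDD livers lie above WT vehicle livers in every panel. The dHep TCDD livers lie below the WT TCDD livers for S100a8, S100a9, Retnlg, Cxcr2 and Csf3r and overlap them for Ly6g and the granule genes, and dHSC TCDD replicate 18 is the highest liver of its group in every panel.

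Without AHR in hepatocytes, in dHep livers, no neutrophil gene was called with TCDD. edgeR's quasi-likelihood test called 0 of the 8 tested, with 0 at an unadjusted p under 0.05, and DESeq2 also called 0. Of all genes tested, 0.0674% were called in either direction, 0.0270% higher and 0.0404% lower, so hardly any gene passed here. The log2 differences ran from -0.51 for Camp to 1.49 for Ngp, with a median of 1.02 against -0.01 over all genes, and adjusted p ran from 0.760 to 0.998.

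S100a8 had 2.90, 3.33 and 10.3 CPM in dHep TCDD replicates 4, 10 and 16, against 1.24, 6.72 and 2.11 CPM in dHep vehicle replicates 3, 9 and 15. The groups overlapped, and the highest liver of each was one of the 5 libraries that stand apart. Its log2 difference was 0.72 ± 0.93 (SE, n = 3 each, adjusted p = 0.922). S100a9 had 3.98, 5.78 and 12.1 CPM in dHep TCDD, against 1.99, 7.85 and 2.64 CPM in dHep vehicle, with a log2 difference of 0.81 ± 0.82 (SE, n = 3 each, adjusted p = 0.896). Dropping dHep TCDD replicate 16 left S100a8 at a log2 difference of -0.10, the lowest of the 6 fits that leave out a dHep library. The highest of those 6 was 1.73, and S100a8 was called in 0 of them. Leaving out all 5 libraries that stand apart, which leaves 1 dHep vehicle liver, gave 1.33. The fit with a covariate, described in the closing section, gave 1.95 and called S100a8 higher (edgeR quasi-likelihood test, adjusted p = 0.0275).

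Cxcr2 and Retnlg were the 2 members whose dHep groups did not overlap, 2 of 8 where 4.56% of all genes had every TCDD liver above every vehicle liver. Cxcr2 had 0.995, 0.879 and 0.816 CPM in dHep TCDD, against 0.374, 0.238 and 0.453 CPM in dHep vehicle. The log2 difference was 1.33 ± 0.72 (SE, n = 3 each, adjusted p = 0.760). Retnlg had 0.779, 1.26 and 1.16 CPM in dHep TCDD, against 0.374, 0.535 and 0.453 CPM in dHep vehicle. Its log2 difference was 1.2 ± 0.91 (SE, n = 3 each, adjusted p = 0.841). Over these 2 genes and groups, the coefficient of variation ran from 10.1% for Cxcr2 in dHep TCDD to 30.6% for Cxcr2 in dHep vehicle. The levels rest on few counts: 49 in dHep TCDD and 20 in dHep vehicle for Cxcr2, and 55 and 25 for Retnlg. Csf3r had 5.28, 2.76 and 7.01 CPM in dHep TCDD, against 2.70, 8.27 and 3.85 CPM in dHep vehicle, with a log2 difference of 0.03 ± 0.67 (SE, n = 3 each, adjusted p = 0.998).

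Among the granule genes in dHep livers, Ngp had 0.779, 0.314 and 1.70 CPM with TCDD, against 0, 0.714 and 0.302 CPM with vehicle. Ltf had 0.346, 0.251 and 2.79 CPM in dHep TCDD, against 0.0749, 0.952 and 0.302 CPM in dHep vehicle. Camp had 0.0866, 0.251 and 0.817 CPM in dHep TCDD, against 0.0749, 0.892 and 0.679 CPM in dHep vehicle. For all 3 the groups overlapped, and dHep TCDD replicate 16 and dHep vehicle replicate 9 were the highest of their groups. Ly6g had 6 counts in dHep TCDD livers and 1 in dHep vehicle livers, a ratio of 6.34 whose 95% counting interval ran from 0.769 to 291.6.

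In dHSC livers, which lack AHR in stellate cells, 3 of the 8 tested members were called higher with TCDD: S100a8, S100a9 and Cxcr2. Of all genes, 1.71% were called higher and 2.55% in either direction. The median log2 difference of the 8 was 2.79, against 0.00 over all genes. All 3 calls were lost without dHSC TCDD replicate 18, the library with 28.4% mitochondrial counts, each vehicle liver was needed as well, and all 3 were lost in the fit of the compared groups alone. The log2 differences of all 8 were above 0, from 1.82 for Camp to 4.62 for S100a8. Without replicate 18 they ran from 0.42 for Camp to 2.05 for S100a8, with Csf3r at 0.48, Retnlg at 0.63, Ltf at 0.86 and Ngp at 1.33.

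S100a8 had 3.98, 3.36 and 58.2 CPM in dHSC TCDD replicates 6, 12 and 18, against 0.362, 0.589 and 1.76 CPM in dHSC vehicle replicates 5, 11 and 17. The groups did not overlap, yet replicate 18 alone held most of the signal, and its level was the highest of all 18 livers. The log2 difference was 4.62 ± 1.08 (SE, n = 3 each, adjusted p = 0.0306) with it and 2.05 without it (adjusted p = 0.266). Leaving out all 5 libraries that stand apart gave 2.97 (adjusted p = 0.00480). S100a9 had 5.31, 4.05 and 50.9 CPM in dHSC TCDD, against 0.860, 0.884 and 2.04 CPM in dHSC vehicle. Its log2 difference was 4.0 ± 0.93 (SE, n = 3 each, adjusted p = 0.0297), against 1.90 without replicate 18 (adjusted p = 0.231) and 2.42 without the 5 libraries (adjusted p = 0.0497).

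Cxcr2 had 0.664, 0.692 and 3.58 CPM in dHSC TCDD, against 0.0905, 0.221 and 0.281 CPM in dHSC vehicle. These groups were also apart, and the log2 difference was 3.06 ± 0.78 (SE, n = 3 each, adjusted p = 0.0484), against 1.80 without replicate 18 (adjusted p = 0.295). This call lay close to the threshold and was also lost with sets of mouse numbers as a block (adjusted p = 0.0538), with RLE scaling (0.0524), with no low-count filter (0.0599) and without the 5 libraries (0.292). S100a8, S100a9 and Cxcr2 were 3 of 8 tested members with every TCDD liver above every vehicle liver, as for 9.61% of all genes. The other members overlapped between the groups. Csf3r had 6.71, 3.81 and 35.5 CPM in dHSC TCDD, against 2.54, 2.95 and 5.84 CPM in dHSC vehicle, and Retnlg had 0.221, 0.346 and 4.08 CPM in dHSC TCDD, against 0.136, 0.147 and 0.281 CPM in dHSC vehicle. Their log2 differences of 2.02 ± 0.69 for Csf3r and 3.01 ± 1.0 for Retnlg (SE, n = 3 each, adjusted p = 0.173 and 0.155) did not pass. The 3 granule genes had adjusted p from 0.391 to 0.568. Ngp had 1.11, 0.544 and 3.58 CPM in dHSC TCDD, against 0.136, 0.0737 and 0.774 CPM in dHSC vehicle. Ly6g had 7 counts in dHSC TCDD livers and 0 in dHSC vehicle livers, at least 2.44-fold higher against a floor of 3 counts over the group. Of the 7, replicate 18 held 6, and without it the 1 count left is under that floor and gives no fold.

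**Figure D2:**
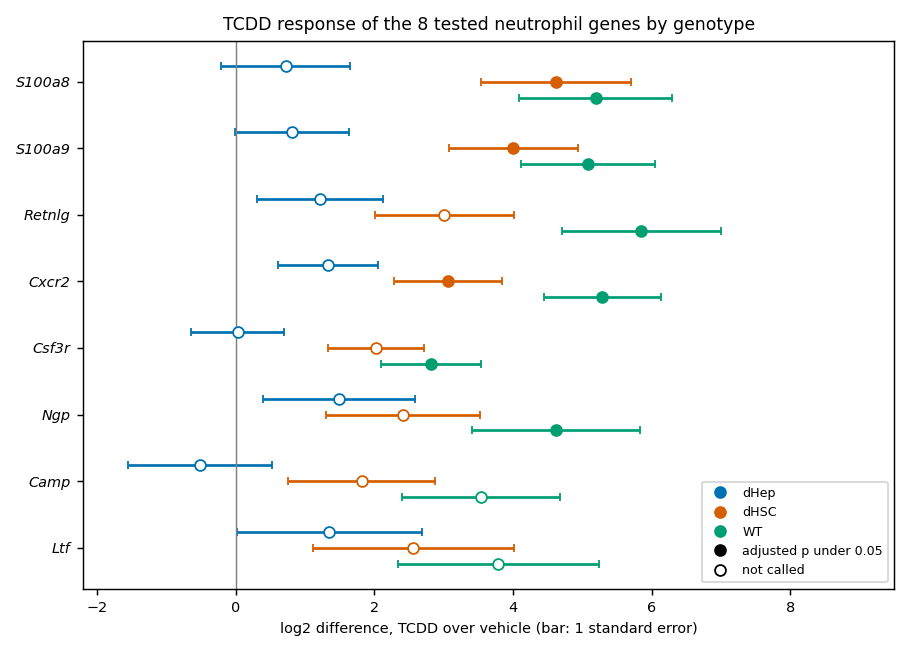
Log2 difference, TCDD over vehicle, of the 8 tested neutrophil genes in dHep, dHSC and WT livers (points, with bars of 1 SE; filled where the adjusted p is under 0.05). WT points lie between 2.82 and 5.85, dHSC points between 1.82 and 4.62, and dHep points between -0.51 and 1.49.

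Whether the response itself depended on genotype was tested as the difference of the TCDD responses, where both genotypes are set against the same 6 WT livers. The dHep response minus the WT response was negative for all 8 members, with a median of -4.0 against -0.02 over all genes. The differences were -4.47 for S100a8, -4.27 for S100a9, -4.63 for Retnlg, -3.95 for Cxcr2, -2.80 for Csf3r, -3.12 for Ngp, -4.05 for Camp and -2.44 for Ltf. edgeR's quasi-likelihood test called 0 of them, with adjusted p from 0.144 for Cxcr2 to 0.800 for Ltf. Of all genes, 0.856% were called in either direction. At an unadjusted p under 0.05 there were 6 of the 8, and DESeq2 called 2. A fit of the compared groups alone called 2, with adjusted p = 0.0492 for S100a8 and 0.0484 for S100a9, so the side of the threshold on which the calgranulins fall depends on the fit. For dHSC minus WT, 0 of the 8 were called by edgeR, at an unadjusted p under 0.05 or by DESeq2, and the median was -1.48. Of all genes, 0.00% were called in that comparison, and 233 had an unadjusted p under 0.05.

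The vehicle livers enter that difference. In vehicle, the log2 differences of dHep over WT were 2.24 ± 1.01 for S100a8, 1.98 ± 0.88 for S100a9, 2.84 ± 1.16 for Retnlg and 1.58 ± 0.84 for Cxcr2 (SE, n = 3 each). For these 4 of the 8 members, every dHep vehicle liver was above every WT vehicle liver, as for 4.59% of all genes. Without the 5 libraries that stand apart, which leaves 1 dHep vehicle liver, S100a8 stood at 0.81 and S100a9 at 0.92. Leaving out 1 library gave values down to 1.2 for S100a8 and 1.13 for S100a9. The lowest values over all the alternative settings were 0.43 for S100a8 and 0.52 for S100a9. None passed the test in edgeR, with adjusted p from 0.623 to 0.699 over the 8, nor in DESeq2, and 3 had an unadjusted p under 0.05. The comparison called 0.00% of all genes. Summed over the 9 members, dHep vehicle replicates 3, 9 and 15 held 6.85, 26.2 and 10.8 CPM, against 4.59, 2.91 and 6.03 CPM in the WT vehicle livers. Replicates 9 and 15 are among the libraries that stand apart, and replicate 3, which is not, lay just above the highest WT vehicle liver. Differences of the dHSC vehicle livers from WT vehicle ran from 0.07 to 1.58 on the log2 scale. There too 0 of 8 and 0.00% of all genes were called, and DESeq2 called 0 members. At an unadjusted p under 0.05 there were 0 members and 220 of all genes.

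Between dHep and WT livers given TCDD, no neutrophil gene passed the test, with log2 differences from -2.38 for Cxcr2 to -1.28 for Ltf. For 5 of the 8 tested members, every dHep TCDD liver was below every WT TCDD liver, as for 9.67% of all genes. The 5 were S100a8, S100a9, Retnlg, Cxcr2 and Csf3r, whose values are given above. Cxcr2 was nearest to a call, at -2.38 ± 0.69 (SE, n = 3 each, adjusted p = 0.111). S100a9 stood at -2.29 ± 0.84 (SE, n = 3 each, adjusted p = 0.272) and S100a8 at -2.23 ± 0.94 (SE, n = 3 each, adjusted p = 0.404). edgeR called 0 of the 8, where 1.94% of all genes were called in either direction and 1.12% lower, with 4 at an unadjusted p under 0.05 and 1 called by DESeq2. Leaving out the 5 libraries that stand apart called 3, among them S100a8 at -3.05 (adjusted p = 0.00105) and S100a9 at -2.87 (adjusted p = 0.00763). Of dHSC against WT livers with TCDD, 0 of 8 were called and 0.00% of all genes. An unadjusted p under 0.05 was found for 1 member and for 539 of all genes. DESeq2 called 0 members and 22 of all genes there. Only Cxcr2 separated those groups, at 0.664, 0.692 and 3.58 CPM in dHSC TCDD against 4.44, 5.58 and 4.09 CPM in WT TCDD. Of all genes, 4.39% had every dHSC TCDD liver below every WT TCDD liver. For every other tested member, dHSC TCDD replicates 6 and 12 also lay below all 3 WT TCDD livers. The overlap there came from replicate 18 alone. S100a8, for example, had 3.98 and 3.36 CPM in replicates 6 and 12, against 21.3 CPM or more in WT TCDD.

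Across the 6 groups the order of mean levels was much the same for every member, with the place of dHSC TCDD resting on replicate 18. WT TCDD livers came first for all members but Csf3r, and dHSC TCDD came first for Csf3r at 15.3 ± 17.5 CPM, next to 14.9 ± 2.41 CPM in WT TCDD (SD, n = 3 each). For S100a8 the means were 25.8 ± 3.97 CPM in WT TCDD, 21.9 ± 31.5 in dHSC TCDD, 5.52 ± 4.18 in dHep TCDD, 3.36 ± 2.95 in dHep vehicle, 0.903 ± 0.749 in dHSC vehicle and 0.703 ± 0.297 in WT vehicle (SD, n = 3 each). No neighbours in that order were free of overlap for S100a8, S100a9 or Ly6g. Without replicate 18 the dHSC TCDD mean of S100a8 was 3.67 CPM (n = 2). Without the 5 libraries that stand apart, dHSC TCDD means were below dHep TCDD means for S100a9, Ly6g, Retnlg and Cxcr2. They were above for S100a8, Csf3r, Ngp, Camp and Ltf. Summed over the 9 members, dHSC TCDD replicates 6, 12 and 18 held 18.96, 13.35 and 161.3 CPM. The dHep TCDD replicates 4, 10 and 16 held 15.36, 14.82 and 36.81 CPM. Cxcr2 had clear steps from WT TCDD to dHSC TCDD and from dHep TCDD to dHep vehicle. Retnlg had clear steps from dHep TCDD to dHep vehicle and from dHep vehicle to dHSC vehicle. Per kilobase of exon, so that genes can be compared, WT TCDD levels were highest for S100a9 at 68.3 ± 14.3 and S100a8 at 37.2 ± 5.71 CPM per kb (SD, n = 3). Retnlg followed at 6.20, Csf3r at 4.12, Ngp at 3.17, Camp at 1.84, Cxcr2 at 1.54, Ltf at 0.782 and Ly6g at 0.290 CPM per kb.

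The members did not all move in step between livers of 1 group. In WT TCDD livers the coefficient of variation was 15.4% for S100a8, 16.2% for Csf3r, 16.5% for Cxcr2 and 20.9% for S100a9, but 69.3% for Ngp, 83.3% for Camp and 99.4% for Ltf (n = 3). Ngp, Camp and Ltf made up 8.33%, 2.43% and 14.4% of the counts of the 9 members in WT TCDD replicates 2, 8 and 14. The exact 95% binomial intervals of these shares, 7.07% to 9.74%, 1.75% to 3.29% and 13.1% to 15.8%, did not overlap, though they cover counting error only. The same 3 livers were close in the summed level of the 9 genes. Over the other groups this share ran from 2.19% in dHep vehicle replicate 3 to 17.3% in WT vehicle replicate 7. Group means of the share were 8.39% ± 5.98 in WT TCDD and 11.3% ± 5.44 in WT vehicle (SD, n = 3 each), within the spread between mice.

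Ratios within the other pairs also varied. S100a8 took 38.6% to 47.2% of the counts of the 2 calgranulins in the group means and 29.6% to 57.9% in single livers. In dHSC TCDD replicate 18 it took 53.4% (exact 95% interval 50.8% to 55.9%), above the 3 WT TCDD livers at 40.4% to 44.0%. Cxcr2 took 24.1% ± 2.81 of the counts of Cxcr2 and Csf3r in WT TCDD livers, and 5.95% ± 5.19 in WT vehicle livers (SD, n = 3 each). It took 16.8% ± 6.90 in dHep TCDD and 8.51% ± 5.01 in dHep vehicle, and 11.2% ± 3.64 in dHSC TCDD and 5.01% ± 1.80 in dHSC vehicle (SD, n = 3 each). In dHSC TCDD replicate 18, where Csf3r reached 35.5 CPM, the share of Cxcr2 was 9.17%, below all 3 WT TCDD livers at 20.9%, 26.3% and 25.2%. Over the 18 libraries the log2 levels of S100a8 and S100a9 correlated at r = 0.99, and the loosest pair was Cxcr2 with Camp at r = 0.66. After each group's mean was taken away, Ngp and Camp still correlated at r = 0.87, and Cxcr2 and Ngp at r = 0.18. These libraries share their depth and, in 5 cases, their distance from the rest, and no p is given.

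**Figure D3:**
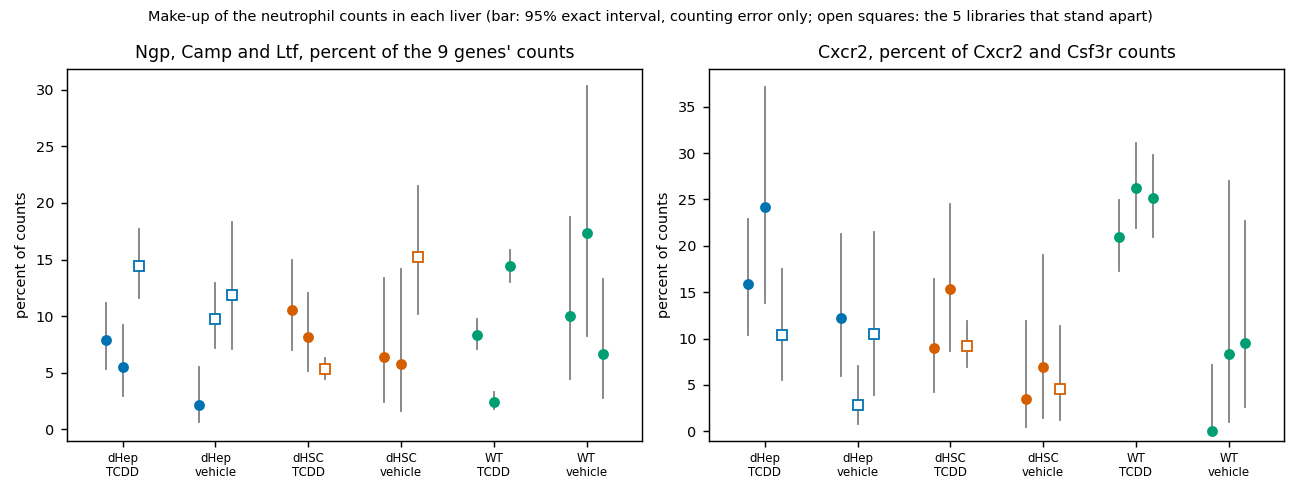
Share of the counts of the 9 genes that came from Ngp, Camp and Ltf (left), and share of the counts of Cxcr2 and Csf3r that came from Cxcr2 (right), in percent per liver with exact 95% intervals for counting error. The granule share differs between the 3 WT TCDD livers, from 2.43% to 14.4%. The Cxcr2 share in WT TCDD, at 20.9% to 26.3%, is above that of all other livers but dHep TCDD replicate 10, which lies within that range at 24.1%.

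Other genes of neutrophil life were read from 8 lists. Genes of the azurophil granules, the earliest to be made, were scarce: of 7 listed, 2 passed the filter and 0 were called in any genotype by edgeR or DESeq2. Myeloperoxidase, Mpo, had 25 counts in WT TCDD livers and 0 in WT vehicle livers, and neutrophil elastase, Elane, had 32 and 5. Another gene covers 49.5% of the span of Mpo, which is counted on the rest. Prtn3, proteinase 3, averaged 1.83 CPM in WT TCDD and 0.171 CPM in WT vehicle, with a log2 difference of 3.38 ± 1.31 (SE, n = 3 each, adjusted p = 0.174). Cebpe, a transcription factor of granule genes, averaged 7.47 CPM in WT TCDD and 7.94 CPM in WT vehicle.

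Of the 8 other genes of specific and gelatinase granules, 6 were tested and 4 were called higher in WT. Mmp8, the neutrophil collagenase, averaged 4.36 ± 2.03 CPM in WT TCDD and 0.113 ± 0.0554 CPM in WT vehicle (SD, n = 3 each), a log2 difference of 5.18 ± 0.92 (SE, adjusted p = 0.00309). Lcn2, which binds bacterial iron carriers and which hepatocytes also make, averaged 202.3 ± 38.8 CPM in WT TCDD and 8.46 ± 2.19 CPM in WT vehicle (SD, n = 3 each). Its log2 difference was 4.58 ± 0.71 (SE, adjusted p = 0.00101). Chil3, a chitinase-like protein of myeloid cells, and the gelatinase Mmp9 differed by 3.38 and 3.00, and the call of Chil3 was lost without WT vehicle replicate 7 or WT TCDD replicate 14. In dHSC livers Mmp8 and Lcn2 were called higher. Mmp8 had 116 counts in dHSC TCDD and 2 in dHSC vehicle, a ratio of 60.6 (95% counting interval 16.4 to 506.4), and its call held in all 6 fits that leave out a dHSC library but not in the fit of the compared groups alone (adjusted p = 0.0958). Lcn2 had a log2 difference of 2.69 in dHSC (adjusted p = 0.0390), against 1.39 without replicate 18 (adjusted p = 0.268). In dHep livers 0 of the 6 were called, and Lcn2 averaged 51.4 ± 18.8 CPM in dHep TCDD and 13.6 ± 9.68 CPM in dHep vehicle (SD, n = 3 each, log2 difference 1.91 ± 0.64, adjusted p = 0.523).

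Of 16 other genes of mature neutrophils, 13 were tested, and 4 were called higher and 1 lower in WT. The decoy interleukin-1 receptor Il1r2 averaged 4.43 ± 0.765 CPM in WT TCDD and 0.114 ± 0.0996 CPM in WT vehicle (SD, n = 3 each), a log2 difference of 5.20 ± 0.78 (SE, adjusted p = 0.000758). Other genes cover 24.8% of its span, and it is counted on the rest. Trem1, an activating receptor of myeloid cells, had 51 counts in WT TCDD and 1 in WT vehicle, a ratio of 42.3 (95% counting interval 7.26 to 1702). The lectin receptors Clec4d and Clec4e differed by 4.44 and 4.10, and the calls of Trem1 and Clec4e held in 1 of 6 fits that leave out a WT library, the one without WT TCDD replicate 8. The call of Clec4d was lost without WT vehicle replicate 13 (adjusted p = 0.0508). Wfdc21 was the one called lower, at 182.6 CPM in WT TCDD and 549.9 CPM in WT vehicle. Its level is far above that of every member, and its log2 difference was -1.59 ± 0.44 (SE, n = 3 each, adjusted p = 0.0431), a call that held in 2 of the same 6 fits. In dHSC, Il1r2 and Clec4e were called higher and Wfdc21 lower. Il1r2 had 146 counts in dHSC TCDD and 2 in dHSC vehicle, a ratio of 76.3 (95% counting interval 20.7 to 635.8), and its call held without replicate 18 but not in the fit of the compared groups alone (adjusted p = 0.0931), while those of Clec4e and Wfdc21 were lost without it. In dHep edgeR called 0 of 13 and DESeq2 1, with Il1r2 nearest by edgeR at 1.79 ± 0.515 CPM in dHep TCDD and 0.167 ± 0.0643 CPM in dHep vehicle (SD, n = 3 each, log2 difference 3.40 ± 0.73, adjusted p = 0.129).

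Among 12 neutrophil-attracting ligands and growth factors, 7 were tested and 2 were called higher in WT, Cxcl1 and Cxcl2, both ligands of CXCR2. Cxcl1 averaged 20.6 ± 10.4 CPM in WT TCDD and 2.02 ± 1.27 CPM in WT vehicle (SD, n = 3 each), a log2 difference of 3.34 ± 0.69 (SE, adjusted p = 0.00878), lost without WT vehicle replicate 13 (adjusted p = 0.0531). Cxcl2 had 132 counts in WT TCDD and 3 in WT vehicle, a ratio of 36.5 (95% counting interval 12.2 to 179.1, adjusted p = 0.00459). In dHep livers Cxcl1 averaged 3.92 ± 2.21 CPM with TCDD and 7.87 ± 4.32 CPM with vehicle (SD, n = 3 each), a log2 difference of -1.01 ± 0.64 (SE, adjusted p = 0.805). The dHep response of Cxcl1 minus its WT response, at -4.35 ± 0.94 (SE), was called (adjusted p = 0.0385). That call was lost in 8 of 12 fits that leave out 1 library, and adjusted p reached 0.119. Csf3, the G-CSF that binds CSF3R, had 114 counts in WT TCDD and 3 in WT vehicle but did not pass (adjusted p = 0.0892), with single WT TCDD livers from 0.331 to 4.96 CPM. No ligand was called in dHep or dHSC. In WT, leaving out the 5 libraries that stand apart raised the count of called ligands to 6.

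Of 12 adhesion and migration genes, 10 were tested and 4 were called higher in WT. Among them were the complement receptor C5ar1 at a log2 difference of 3.73 ± 0.53 (SE, n = 3 each, adjusted p = 0.000464), the selectin ligand Selplg at 1.62 and the endothelial ligand Vcam1 at 1.44. The call of Selplg was lost without WT TCDD replicate 2 or 14 or WT vehicle replicate 7, and that of Vcam1 without WT TCDD replicate 2 or WT vehicle replicate 13. Both were also lost in the edgeR fit of the compared groups alone (adjusted p = 0.068 for Selplg and 0.0986 for Vcam1). C5ar1 was also called in dHSC at 2.54 ± 0.50 (SE, n = 3 each, adjusted p = 0.0110). That call was lost without dHSC vehicle replicate 5 or 11 and without the 5 libraries that stand apart. In dHep, C5ar1 differed by 2.66 ± 0.51 without passing (SE, n = 3 each, adjusted p = 0.0757). C5ar1 kept its WT call in all 6 fits that leave out a WT library, and the count of 4 ran from 1 without WT TCDD replicate 2 to 6 without WT vehicle replicate 1. Of 6 NADPH oxidase genes, 5 were tested and 2 were called higher in WT, Ncf4 at 2.93 ± 0.67 and Rac2 at 1.48 ± 0.37 (SE, n = 3 each, adjusted p = 0.0154 and 0.0252). Neither call held without WT vehicle replicate 7 or 13, and that of Rac2 was also lost without WT TCDD replicate 2 or 14 (adjusted p up to 0.134). edgeR called none of the 5 in dHep or dHSC, and DESeq2 called 1 in dHSC.

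Among receptors and signalling genes for calgranulins, 1 was called. Of 6 listed, 5 were tested, and Cd14, the co-receptor of TLR4, was called higher in WT, at 22.2 ± 5.24 CPM in WT TCDD and 3.48 ± 1.36 CPM in WT vehicle (SD, n = 3 each). Its log2 difference was 2.67 ± 0.35 (SE, adjusted p = 0.000271). It averaged 5.78 ± 1.27 CPM in dHep TCDD and 4.43 ± 1.02 CPM in dHep vehicle, and 4.81 ± 1.14 CPM in dHSC TCDD and 5.12 ± 0.713 CPM in dHSC vehicle (SD, n = 3 each). The dHep response minus the WT response was -2.29 ± 0.48 (SE, adjusted p = 0.0309), a call lost in 7 of those 12 fits, and with TCDD the dHep livers were lower than WT livers by a log2 difference of -1.94 ± 0.34 (SE, n = 3 each, adjusted p = 0.00497). Tlr4 itself averaged 9.53 CPM in WT TCDD and 5.41 CPM in WT vehicle, with an adjusted p of 0.320. Of 8 other S100 genes, 6 were tested and 0 were called in any genotype by edgeR, 0 by DESeq2, and their median log2 difference in WT was -0.04. S100a10 averaged 156.8 CPM in WT TCDD and 165.8 CPM in WT vehicle. S100a1 averaged 121.6 CPM in WT TCDD and 121.2 CPM in WT vehicle. Among all listed genes and markers, 12 had no count in any library, among them Itgam, Cyba, Fpr2, Anxa1 and Myd88. For 11 of the 12, other annotated genes cover 92.9% to 100% of the span. For these, a level of 0 says nothing about expression.

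**Figure D4:**
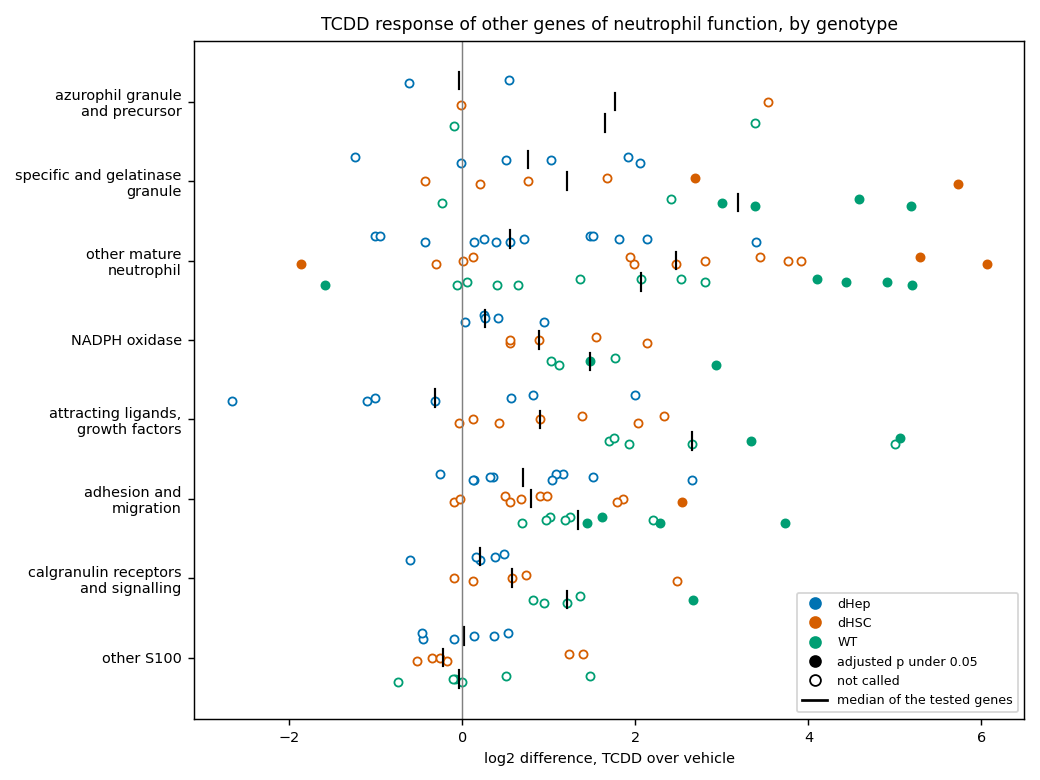
Log2 difference, TCDD over vehicle, of the tested genes of 8 lists in dHep, dHSC and WT livers (1 point a gene, filled where the adjusted p is under 0.05, with the list median as a bar). The median of the specific granule list is 0.76 in dHep, 1.21 in dHSC and 3.19 in WT, and that of the other S100 genes is 0.02 in dHep, -0.22 in dHSC and -0.04 in WT.

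Markers of several other blood cells were called higher in WT livers with TCDD, and not all of them followed the neutrophil genes in the other genotypes. Of 5 monocyte and macrophage markers, 4 were tested and 2 called higher in WT, Gpnmb and Itgax. Their sum was 64.3 to 194.2 CPM in WT TCDD and 2.75 to 9.80 CPM in WT vehicle, 35.7 to 77.2 CPM in dHep TCDD and 4.83 to 16.1 CPM in dHep vehicle, and 64.5 to 82.9 CPM in dHSC TCDD and 4.01 to 6.61 CPM in dHSC vehicle. Most of that sum is Gpnmb. The sum separated TCDD from vehicle in dHep livers too, as did Cxcr2 and Retnlg, and edgeR called 0 of the 4 tested markers there. Replicate 18 of dHSC TCDD, highest for the neutrophil sum, was lowest of its group for this sum. Ly6c2, the defining marker of young monocytes, had 96 counts in WT TCDD and 35 in WT vehicle. Of 6 B and plasma cell markers, 4 were tested, and 3 were called higher in WT, 3 in dHSC and 0 in dHep. They summed to 27.6 to 54.2 CPM in WT TCDD and 4.71 to 10.4 CPM in WT vehicle, and dHSC TCDD replicate 18 held 90.99 CPM, where the other 2 livers of that group held 16.7 and 11.3 CPM. Their Ms4a1 and Mzb1 are among the 12 genes with no count. Of 6 T and NK cell markers, 5 were tested and 0 called in any genotype, with sums of 7.69 to 10.3 CPM in WT TCDD and 3.53 to 9.82 CPM in WT vehicle.

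Of 4 eosinophil markers, 2 were tested and 1, Siglecf, was called higher in WT, while 2 were called higher in dHSC and 0 in dHep. Their sum was 1.65 to 3.93 CPM in WT TCDD and 0.0560 to 0.230 CPM in WT vehicle, with Epx at 0 counts in both groups. It was 3.69 to 7.07 CPM in dHSC TCDD, where replicate 18 held 3.94 CPM, and 0.211 to 0.368 CPM in dHSC vehicle. Of 5 basophil and mast cell markers, 1 was tested and called higher in WT, Mcpt8, which had 73 counts in WT TCDD and 0 in WT vehicle, at least 20.2-fold higher against a floor of 3 counts over the group. Of 4 platelet markers, 2 were tested and Pf4 was called higher in WT, with sums of 15.6 to 24.9 CPM in WT TCDD and 3.85 to 6.65 CPM in WT vehicle. Erythroid markers, which would follow blood left in the sample, gave sums of 135.4 to 393.2 CPM in WT TCDD and 116.5 to 329.7 CPM in WT vehicle, and 0 of the 5 tested were called in any genotype. Hepatocyte marker sums averaged 60610 CPM in WT TCDD and 106000 CPM in WT vehicle, with overlap between the groups. All 5 tested had a log2 difference below 0 in WT, at a median of -1.10, and 0 were called in any genotype. The part of these other cells in the levels of the neutrophil genes was not tested.

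**Figure D5:**
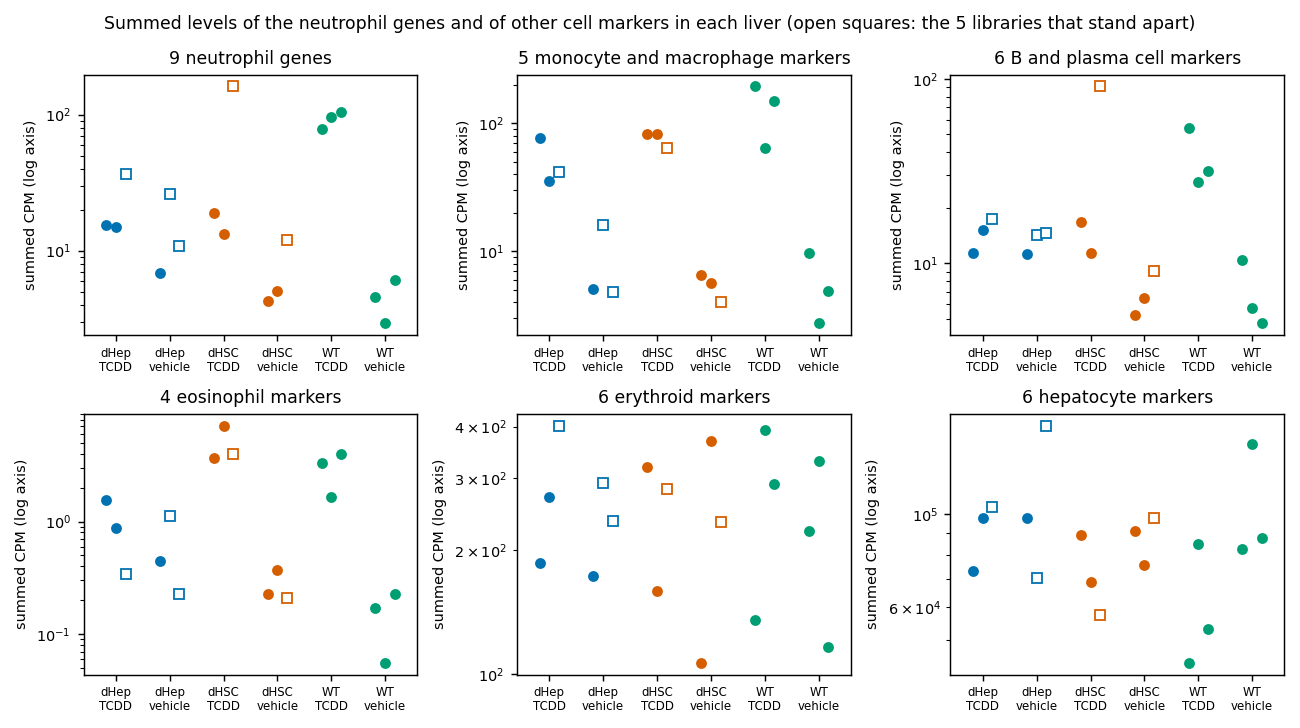
Summed CPM (log axes) of the 9 neutrophil genes and of 5 marker sets in each liver, by group, with the 5 libraries that stand apart as open squares. Monocyte, B cell and eosinophil sums are higher in WT TCDD than in WT vehicle livers like the neutrophil sum, while erythroid sums overlap between all groups.

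The genes outside the set whose log2 levels followed the members most closely over the 18 libraries were ranked by Pearson's r with the mean standardised level of the 8 tested members. Genes with no symbol or with a predicted-gene name (Gm or Rik) were left out. The 15 closest of the rest had r from 0.92 to 0.96. Lgals3, the sugar-binding protein galectin-3, came first, at 55.2 ± 3.59 CPM in WT TCDD and 6.65 ± 1.54 CPM in WT vehicle (SD, n = 3 each). Coro1a, an actin regulator of white blood cells, and Adam8, a surface protease, came next, and then Ccdc88b, Myo1g, Ncf4, H2-DMb2, Akna, Spi1, Tgfb1, Rac2, Unc13d, Ltb, Fcer1g and Cd52. Spi1 encodes PU.1, one of the 2 factors whose motifs were searched above, and averaged 31.8 ± 1.49 CPM in WT TCDD and 9.93 ± 2.51 CPM in WT vehicle (SD, n = 3 each). The group differences and the libraries that stand apart enter these values. Over the 14 libraries without the WT TCDD livers and dHSC TCDD replicate 18, the r of Lgals3 was 0.94 and that of Spi1 0.86.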

How the data were processed

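RNA of 18 mouse livers was sequenced, 3 mice a group. The deposited values are counts of reads per gene, made by the authors with HISAT2 2.1.0, HTSeq 0.11.3 and GRCm38, per the submitters' processing notes. Counting settings and strand are not given in the sources used here. From these, edgeR 4.0.16 was run on all 18 libraries together (TMM scaling, filterByExpr, quasi-likelihood F test, Benjamini-Hochberg adjustment over 14835 genes), with DESeq2 1.42.0 as an alternative. SE is the log2 difference divided by the square root of F. CPM were computed after TMM, and CPM per kb use merged exons of the GRCm38 annotation. Nothing says more of the mice than that they are separate, so p-values measure the spread between them. Replicates of a group differed beyond counting noise (chi-square per degree of freedom 20.4 to 475.3). Intervals cover counting error only.

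Named are the 9 members and, from each list, up to 4 genes called in WT with the largest change, or the most abundant where fewer than 2 were called, plus the 15 genes of closest pattern. Other genes were named after their values were seen, such as Csf3, Mpo, Elane and the cell markers. A gene of the adhesion list that the rule names is not reported here. Members and lists were chosen with earlier results of these data known. Alternatives were another scaling, other low-count filters, the compared groups alone, DESeq2, a covariate, sets of mouse numbers as a block, and leaving libraries out. The fitting steps were tested on simulated data, in which only genes above a minimum mean level were changed. Retnlg, Cxcr2, Ngp, Camp and Ltf lie below that level, so the recovery of changes in such genes was not tested.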

Additional observations from a re-analysis of the deposited data

Results flagged for a closer look

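For 2 genes of the related lists, the TCDD response differed between genotypes by a test of the difference itself. Cxcl1, a ligand of CXCR2, had a dHep response minus WT response of -4.35 on the log2 scale (edgeR quasi-likelihood test, adjusted p = 0.0385). Cd14, the co-receptor of TLR4, had -2.29 (adjusted p = 0.0309). Both calls were lost in the fit of the compared groups alone and in that without the 5 libraries that stand apart.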

How the results depend on the processing

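Of the 8 tested members, 6 were called in WT with TCDD, 6 to 8 under the other settings and 3 to 5 with 1 WT library left out (3 without WT vehicle replicate 7). In dHep, 0 were called, and 1, S100a8, with a covariate, each library's share of counts that fell outside protein-coding genes. In dHSC, 3 were called, 0 in the fit of the compared groups alone, and 0 to 3 with 1 library left out (0 without dHSC TCDD replicate 18 or dHSC vehicle replicate 5, 11 or 17). For the dHep minus WT response, 0 were called, but 2 with the compared groups alone, 2 by DESeq2, 2 with the covariate, 1 without the 5 libraries that stand apart and 1 with sets of mouse numbers as a block. For dHep against WT with TCDD, 0 were called, but 2, 1, 4 and 3 with the compared groups alone, DESeq2, the covariate and without the 5 libraries. For dHSC against WT with TCDD, the covariate gave 2. DESeq2 gave S100a8 no adjusted p. The cause of these changes was not tested.

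Directions of uncalled members turned as follows, on the log2 scale. In dHep with TCDD, leaving out 1 library gave -0.10 to 1.73 for S100a8, -0.29 to 0.62 for Csf3r, -1.67 to 0.10 for Camp and -0.51 to 2.66 for Ltf. There the block gave -0.14 for Csf3r, and Camp stood at 1.04 without the 5 libraries and 0.58 with the covariate. Without the 5, the dHep minus WT response of Ngp was 1.83. For dHep against WT in vehicle, values without the 5 were -4.61 for Ngp, -0.57 for Camp and -1.26 for Ltf, and with the covariate -0.56 for Ngp and -0.97 for Ltf. Leaving out 1 library there gave -0.30 to 1.73 for Ngp and -0.15 to 1.72 for Ltf.

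Over all genes, calls numbered 798 in WT (447 to 1926 over all settings), 10 in dHep (0 to 86), 379 in dHSC (67 to 792), 127 for dHep minus WT (40 to 296) and 288 for dHep against WT with TCDD (170 to 720). The other 3 comparisons between genotypes and dHSC minus WT had 0, with up to 22. The labels pair no mice: each number belongs to a single group, and the sets of numbers used as a block rest on no label. Fits that leave a group with 1 or 2 libraries assume the spread of the others. At these depths, members with a few counts a library, such as Ly6g, allow no firm fold.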
